A study of Rattus norvegicus with 24 samples.

Results

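The genes of motile cilia were followed in RNA-seq libraries of the rat nucleus accumbens (NAc), a ventral part of the striatum that is central to reward. Members were protein-coding genes matched by name stem, each stem followed by a number, letter or ending. The stems were those of axonemal dynein chains (Dnah, Dnai, Dnal), cilia and flagella associated proteins (Cfap) and radial spoke heads (Rsph). Tektins (Tekt), sperm associated antigens (Spag) and intraflagellar transport proteins (Ift) were also taken. The single genes Fhad1 and Spa17 were added. The study lists both among genes changed in each treated group against its saline controls, so their choice was not blind to these data. The rule gave 68 genes under 66 names, out of 32545 genes in the table, of which 22293 were protein coding. Cfap46 and Rsph4a were each listed under a pair of gene identifiers.

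The libraries came from adult male Sprague Dawley rats, in 6 groups of 4. In the injection experiment, every rat had 5 injections of saline or of lipopolysaccharide (LPS, 250 µg/kg), a bacterial product that activates the immune system. Then came 5 days of injections of saline or of heroin, the dose rising from 1 to 5 mg/kg. The groups are named for the first and then the second treatment: Saline-Saline, Saline-Heroin, LPS-Saline and LPS-Heroin. By the sample labels, tissue was taken 1 h after the last injection. In the study's methods every injected rat was first recorded in a locomotor chamber, and death came within 1 h of the end of that recording. In the self-administration experiment, rats lever-pressed for saline (Saline-SA) or heroin (Heroin-SA, 0.075 mg/kg per infusion) in 10 daily sessions of 6 h. Housing, light cycle and time of death differed between the experiments in the study's methods, so these cannot be told apart from the way heroin was given. Dissected tissue pooled NAc core and shell.

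Motile cilia are hair-like organelles that beat. Their shaft, the axoneme, carries rows of dynein arms that slide the microtubule doublets, radial spokes that pass signals to those arms from the central pair of microtubules, and tektins inside the doublet wall. Cilia of every kind, including the single immotile cilium of neurons, are built by intraflagellar transport, a shuttle along the axoneme. In the adult forebrain, the cells with many motile cilia are chiefly the ependymal cells that line the ventricles, and NAc neurons carry none. The choroid plexus, which makes cerebrospinal fluid, lies inside the ventricles.

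Values were FPKM, fragments scaled by gene length and by library size so that genes can be compared by level. Libraries held 12312878 to 18850240 reads on genes. A library that stood apart in the cilia genes had to be dealt with first. Over all genes it was not the most extreme. Saline-Saline replicate 1 had the highest value of all 24 libraries in 5.36% of the 15118 genes with a mean of at least 0.5 FPKM, whereas Saline-SA replicate 4 had it in 11.8%, Saline-SA replicate 3 in 9.99% and LPS-Saline replicate 3 in 7.77%. It was at least 2 times the median of the other 23 libraries in 3.68% of them. It was a control rat of the injection experiment, so counts and medians against Saline-Saline are given below with it and without it.

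Saline-Saline replicate 1 was the highest library for 34 of the 68 members. The excess was uneven over the roles: 33 of the 54 members outside intraflagellar transport were highest there, and 1 of the 14 Ift genes. Among the 47 members with a mean of at least 0.5 FPKM, 20 were highest in this library and 16 stood at least 2-fold above the median of the other 23. Only 1 of the 47 reached that mean through this library. The map of all members by library shows this column of high values beside the flat block of Ift genes.

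**Figure D1:**
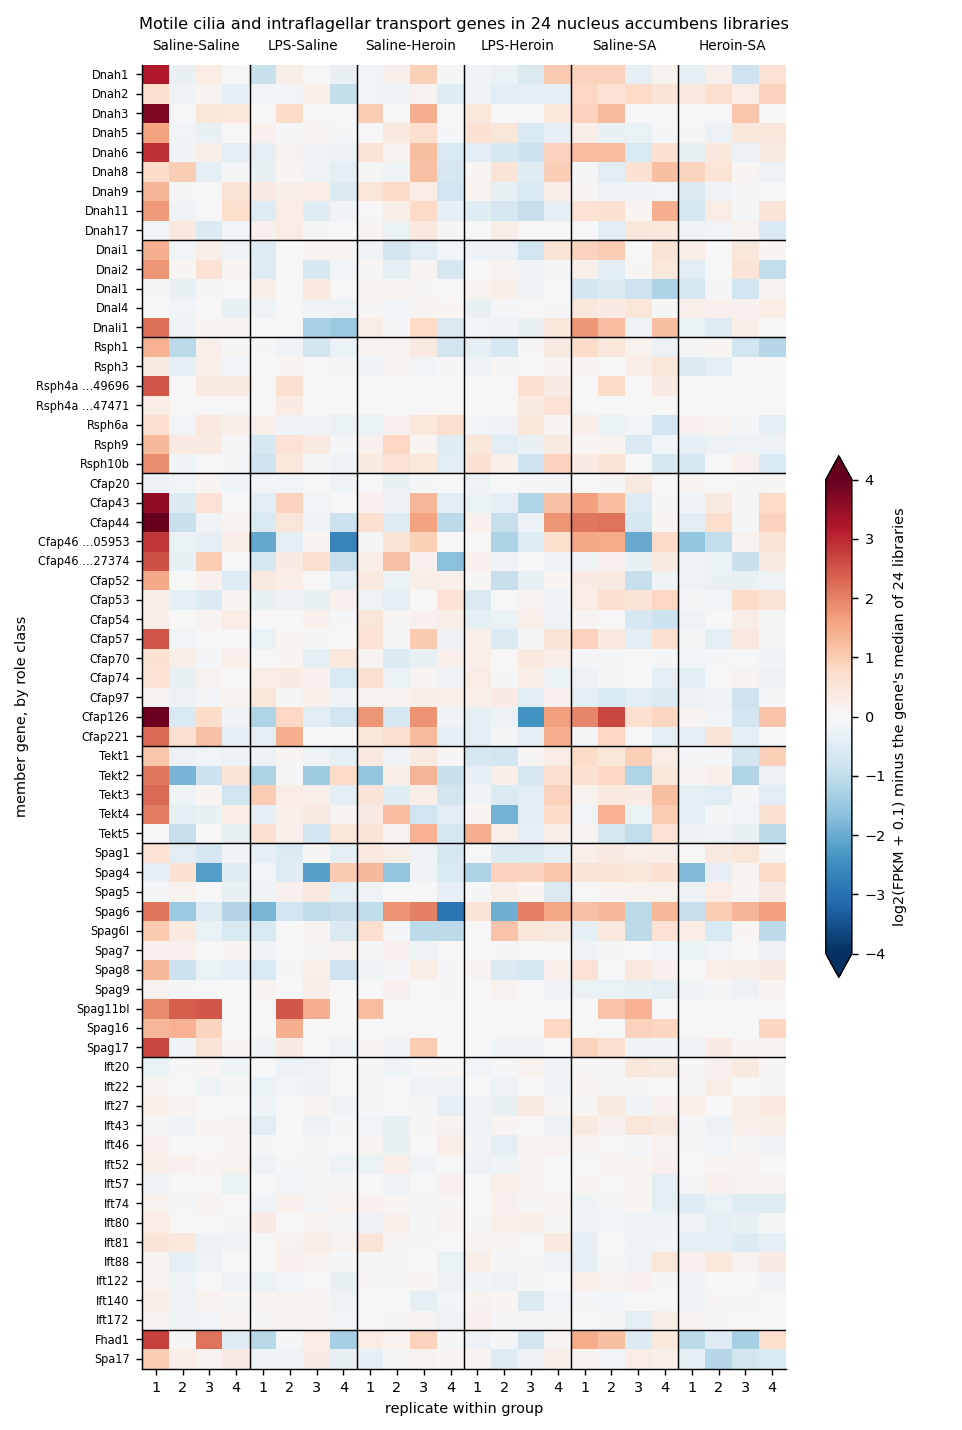
Level of the 67 members above 0 in any library (rows, by role class between horizontal lines) in 24 libraries (columns, by group between vertical lines), as log2(FPKM + 0.1) minus the gene's own median; red is above and blue below that median. Saline-Saline replicate 1, the first column, has dark red rows in every class except intraflagellar transport, whose 14 rows are pale throughout.

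Among the dynein heavy chains, the motors of the arms, 6 of 9 members were highest in Saline-Saline replicate 1. Dnah9, an outer-arm motor, was 2.82 FPKM there and 1.00, 1.06 and 1.56 in the other Saline-Saline libraries. Across the other 23 libraries it ran from 0.556 to 1.83, so the first library stood alone. Dnah2, an inner-arm motor with the highest mean of the class, was 1.74 in Saline-Saline replicate 1 against a median of 1.01, below several self-administration libraries. Some rare heavy chains showed a large excess in reads and others did not. Dnah6 had 263 reads in Saline-Saline replicate 1 and a median of 12 in the others, and Dnah3 had 38 reads against a median of 0, with 13 libraries at 0. Dnah8 had 39 reads there against a median of 13, below the 58 of Saline-SA replicate 4, and Dnah17 had 41 against a median of 42. Dnah6, Dnah3, Dnah8 and Dnah17 were chosen after their values were seen.

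The smaller dynein chains did not move together. Dnali1, a light intermediate chain of inner arms, was 4.53 FPKM in Saline-Saline replicate 1 and 0.794 to 1.00 in the other 3 libraries of its group. Dnal4 was 27.1 FPKM there, its median in the other 23 libraries being 27.1 as well, and Dnal1 was 19.9 against a median of 21.3. Both were abundant in every library. The radial spoke heads went with Dnali1: 5 of 7 members were highest in this library. Rsph9 was 16.2 FPKM there and 4.10 to 11.7 elsewhere, Rsph1 was 5.84 and 0.923 to 3.65 elsewhere, and Rsph3 was 3.81 within a range of 1.99 to 4.12. Reads of Rsph9 may include those of Mrps18a, a gene that overlaps it on the opposite strand, and those of Dnali1 may include Gnl2, since the use of strand in the counting is not stated.

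The Cfap genes are named for the organelle and not for one role. Of 14 members, 9 were highest in Saline-Saline replicate 1. Cfap126, which takes part in placing basal bodies at the cell surface, was 7.77 FPKM there and 0.243, 0.766 and 0.376 in the other Saline-Saline libraries. This was 20.4 times the median of the other 23 libraries, on 136 reads. Cfap43 and Cfap44, a pair of axonemal proteins whose loss stops sperm movement (chosen after their values were seen), had 423 and 326 reads there against medians of 24 and 7. Cfap20, by contrast, was 42.8 FPKM in this library and 40.7 to 64.1 elsewhere, and Cfap97 was 6.87 within 3.55 to 8.67. Cfap20 is also present in cells without motile cilia.

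Tektins, filament proteins of the doublet wall, were highest there in 4 of 5 members. Tekt1 was 7.94 FPKM in Saline-Saline replicate 1 and 3.05 to 3.34 in the rest of its group, although Heroin-SA replicate 4 reached 7.15. Tekt4 was 2.45 against 0.379 to 0.651. The Spag genes, which share a history of discovery in sperm and no single function, were highest there in 4 of 12. Spag9, a scaffold of kinase signalling and transport, was the most abundant member of all with a mean of 55.0 FPKM, and was 62.3 in this library and 42.3 to 66.5 elsewhere. Spag7 was 42.6 within 31.9 to 43.1. One member, Spag11a, was at 0 in all 24 libraries. Of the single genes, Fhad1 was 2.02 FPKM there, with 1.33 in Saline-Saline replicate 3 and 0.0264 to 0.796 in the remaining libraries. Spa17, a small protein of sperm tails and motile cilia that binds the anchors of protein kinase A, was 17.3 against 3.77 to 10.7 in the other 23.

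The Ift genes were present at moderate levels in every library, with means between 8.29 and 40.0 FPKM. Their values in Saline-Saline replicate 1 were 0.816 to 1.44 times the median of the other libraries. Ift20, the most abundant and the one that also sits at the Golgi, was 32.6 FPKM there and 33.7 to 54.0 elsewhere, so this library was its lowest. Ift57 was 17.6 within 15.1 to 22.7. Genes of the transport particle, its motors and the BBSome that carry other names were taken from a separate list. Of these 28 genes, 6 (21.4%) were highest in Saline-Saline replicate 1, against 5.36% of all genes, and none was 2-fold up. Their mean log2 level was highest there, 0.15 above its median of 24 libraries, followed by Saline-SA replicate 3 at 0.12.

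Put on one scale, the mean log2(FPKM + 0.1) over the 33 members outside intraflagellar transport with a mean of at least 0.5 FPKM was 1.10 above its median of 24 libraries in Saline-Saline replicate 1. Next came Saline-SA replicate 1 at 0.46, Saline-SA replicate 2 at 0.44, Saline-Heroin replicate 3 at 0.38 and LPS-Heroin replicate 4 at 0.35. These 4 libraries belong to 3 groups. The corresponding level of the 14 Ift genes was 0.15 in Saline-Saline replicate 1 and between -0.06 and 0.08 in the others. The plot of levels by class shows the same first library at the top of all 6 classes outside intraflagellar transport, and of the Ift genes too.

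**Figure D2:**
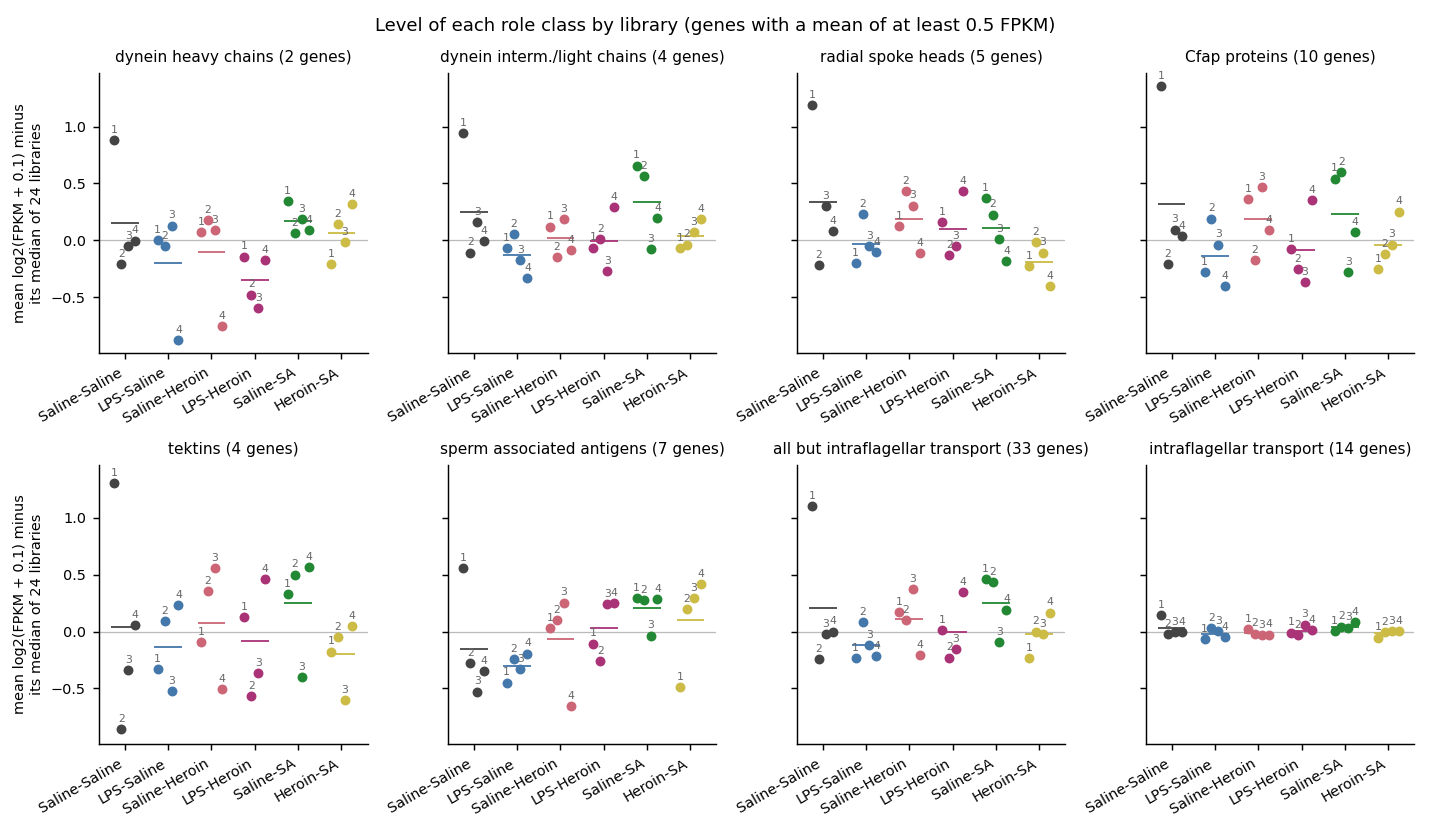
Mean log2(FPKM + 0.1) of each role class, minus its median over 24 libraries (vertical axis), by group; each point is a library with its replicate number and each bar a group mean. Saline-Saline replicate 1 is highest in every panel (1.10 over the 33 genes outside intraflagellar transport). The 14 intraflagellar transport genes span -0.06 to 0.15, the highest again being this library.

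Several markers of ependymal cells, though not all, were high in the same libraries as the members outside intraflagellar transport. Ccdc153, a gene of ependymal cells, was 11.7 FPKM in Saline-Saline replicate 1 and 0.756, 2.29 and 1.10 in the other Saline-Saline libraries. Its next highest libraries were Saline-SA replicate 1 at 5.53, Saline-SA replicate 2 at 4.28 and LPS-Heroin replicate 4 at 3.85. Tmem212, another ependymal gene, was 7.60 in Saline-Saline replicate 1. It then read 2.17 in Saline-SA replicate 2, 1.68 in LPS-Heroin replicate 4, 1.57 in Saline-SA replicate 1 and 1.45 in Saline-Heroin replicate 3, with 7 libraries at 0. These are the same 4 libraries that followed in the level of the members. Over the ependymal list, 12 of 17 genes with a mean of at least 0.5 FPKM were highest in Saline-Saline replicate 1, as were 5.36% of all genes. The members Tekt1, Tekt4, Cfap126 and Rsph1 are among these 12. The mean includes that library, so a gene could enter the 17 through it alone, and such genes were not counted. The summed level of the list was 184 FPKM in Saline-Saline replicate 1 and 62.3 to 148 elsewhere. Vim and S100a6, named after their values were seen, did not follow. Vim had 1037 reads there and 1831 in LPS-Saline replicate 4, and S100a6 had 21 there and 109 in Saline-Heroin replicate 4. Of the 21 genes of this list in the table, 5 are also members.

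The choroid plexus marker Ttr, the carrier of thyroid hormone in cerebrospinal fluid, was 318 FPKM in Saline-Saline replicate 1, on 3594 reads. It was 24.1 in LPS-Heroin replicate 4, 5.35 in Saline-Saline replicate 4 and at most 1.04 in each other library, 9 of which were at 0. Ttr thus marked some of the libraries with high cilia genes and not others, since Saline-SA replicates 1 and 2 read 0.165 and 0. The choroid list summed to 427 FPKM in Saline-Saline replicate 1, of which Ttr was 318, and to 31.1 to 82.3 elsewhere. Of its 6 genes with a mean of at least 0.5 FPKM, a mean that again includes Saline-Saline replicate 1, 3 were highest there. Aqp1 and Slc13a4 (chosen after their values were seen) were highest in LPS-Saline replicate 4, at 6.94 and 14.7 FPKM. Genes of the septum, which borders the lateral ventricle, summed to 131 against 35.5 to 88.9. Drd1, the dopamine receptor of striatal output neurons, had its lowest value there, 41.1 against 45.4 to 103, and was chosen after its values were seen. The list of 10 genes of these neurons was not lowest there. It summed to 1304 FPKM there, and to less in Saline-Saline replicate 4 (1215) and LPS-Heroin replicate 1 (1288). None of these 10 genes and none of 5 cortical genes was highest in Saline-Saline replicate 1. As 5.36% of all genes were highest there, these counts are near that share. Whether tissue next to the ventricle entered some dissections was not tested. In bulk tissue, more cells of a type and more RNA per cell cannot be told apart.

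**Figure D3:**
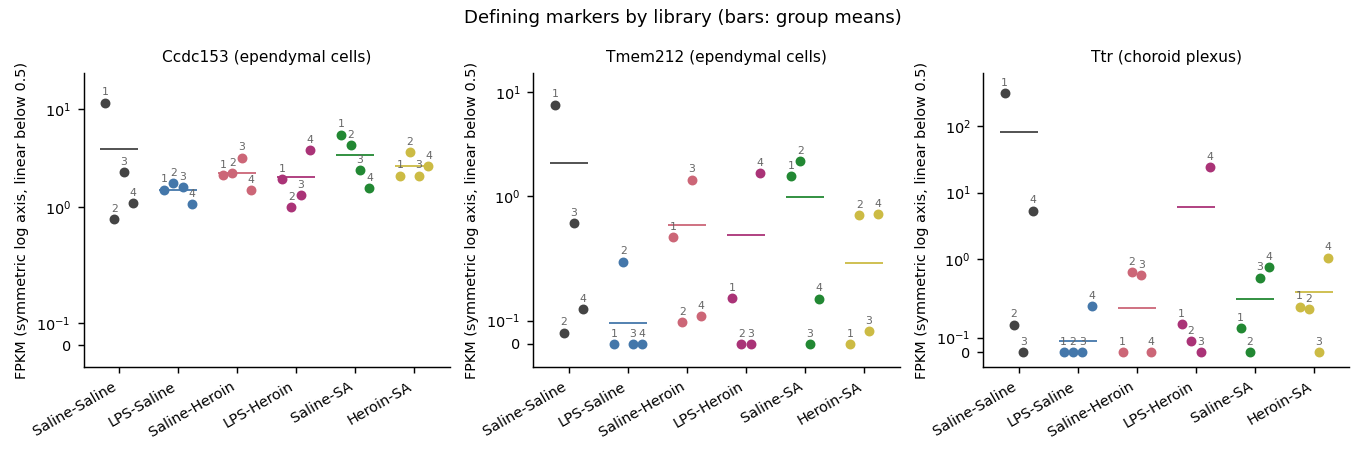
FPKM (vertical axes, symmetric log scale that is linear below 0.5) of the ependymal genes Ccdc153 and Tmem212 and the choroid plexus gene Ttr in each library; points are libraries with their replicate number and bars are group means. Saline-Saline replicate 1 is highest in all 3 panels, and Ttr is 318 there and 24.1 in LPS-Heroin replicate 4.

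The link between members and Ccdc153 was also seen when Saline-Saline replicate 1 was set aside. Over the other 23 libraries, Spearman's rho with Ccdc153 was over 0.5 for 14 of 53 members outside intraflagellar transport, for 1 of 14 Ift genes and for 4.69% of all genes with a mean of at least 0.5 FPKM. The highest were Spag8 at 0.779, Cfap44 at 0.757, Cfap126 at 0.698, Dnah6 at 0.696 and Cfap43 at 0.691. Of the members called in the comparisons below, Cfap126, Rsph1 (0.649) and Dnali1 (0.513) passed 0.5. Rsph3 (0.165) and Spa17 (-0.05) did not. Within the 15 remaining injection libraries, 20 of the 53 passed 0.5, against 3.44% of all genes. Within the 8 self-administration libraries 14 of 52 did, against 11.6% of all genes. These values describe libraries that share groups, depth and tissue composition, so no p-value is given.

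Members that move together may be read beside the sequence at their starts. The X-box, bound by RFX factors, is found before many cilia genes, and forkhead factors act with RFX in cells with many cilia. RefSeq windows of 300 bases (250 before and 50 after the transcription start, assembly GRCr8, printed in the direction of the gene) were held for 51 of the 66 names. An arm of the X-box, GTTGCCA, was searched on both strands and was found in 10 of the 51 members, against 4.86% of 27457 genes. The shorter GTTGCC, which those matches also hold, was in 18 of 51 against 13.1%. The full X-box palindrome was searched with a spacer of fixed length, whose bases were left free, as was a base in each arm. This form was in none of the members and in 0.488% of genes. Other spacer lengths were not searched. The forkhead motif TGTTTAC was in 4 of 51 against 4.13%. Matches of GTTGCCA were not limited to members that followed the ependymal genes, as 3 of 11 Ift windows and 7 of 40 others held it. The windows below are of 3 members with an arm of the X-box and a rho over 0.5 with Ccdc153 (Cfap44, Tekt1 and Spag8), of Cfap43 with a forkhead match, and of Ift88, an Ift gene outside this pattern. Capitals mark the match, which reads TGGCAAC or GTAAACA where it lies on the other strand.
Cfap44, chr11:69789856-69790155, - strand: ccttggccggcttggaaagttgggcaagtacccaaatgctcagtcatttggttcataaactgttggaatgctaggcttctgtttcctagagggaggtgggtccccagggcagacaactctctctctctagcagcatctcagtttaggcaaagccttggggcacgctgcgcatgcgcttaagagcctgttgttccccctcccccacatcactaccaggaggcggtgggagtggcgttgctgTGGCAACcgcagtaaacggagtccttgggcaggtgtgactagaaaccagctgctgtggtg
Tekt1, chr10:57479072-57479371, - strand: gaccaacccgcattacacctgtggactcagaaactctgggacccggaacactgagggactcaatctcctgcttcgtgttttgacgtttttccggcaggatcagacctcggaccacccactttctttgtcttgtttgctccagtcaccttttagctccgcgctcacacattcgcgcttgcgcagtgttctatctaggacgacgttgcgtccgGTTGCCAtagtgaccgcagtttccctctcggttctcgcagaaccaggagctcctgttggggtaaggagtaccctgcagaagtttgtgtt
Spag8, chr5:62699615-62699914, - strand: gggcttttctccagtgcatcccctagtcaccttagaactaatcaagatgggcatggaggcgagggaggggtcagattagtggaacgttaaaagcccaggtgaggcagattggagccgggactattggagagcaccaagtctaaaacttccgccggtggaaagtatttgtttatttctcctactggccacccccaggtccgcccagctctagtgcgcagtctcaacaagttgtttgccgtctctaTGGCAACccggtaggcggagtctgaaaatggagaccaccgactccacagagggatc
Cfap43, chr1:256653653-256653952, - strand: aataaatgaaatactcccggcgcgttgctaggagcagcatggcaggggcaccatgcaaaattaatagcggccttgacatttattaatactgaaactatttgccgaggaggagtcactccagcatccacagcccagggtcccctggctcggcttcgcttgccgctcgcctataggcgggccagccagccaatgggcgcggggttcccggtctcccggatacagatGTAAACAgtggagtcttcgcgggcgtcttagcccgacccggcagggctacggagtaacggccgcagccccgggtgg
Ift88, chr15:35688737-35689036, + strand: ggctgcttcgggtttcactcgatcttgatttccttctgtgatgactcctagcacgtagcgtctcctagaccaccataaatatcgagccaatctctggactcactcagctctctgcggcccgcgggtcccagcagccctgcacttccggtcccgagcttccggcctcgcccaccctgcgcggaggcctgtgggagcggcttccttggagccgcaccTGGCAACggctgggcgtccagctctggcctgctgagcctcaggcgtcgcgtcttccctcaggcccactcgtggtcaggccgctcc
The matches began at -10 in Cfap44, at -39 in Tekt1, at -6 in Spag8, at -26 in Cfap43 and at -35 in Ift88, in bases from the transcription start. A match is a string of letters in a window and is not evidence of binding.

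The injection experiment asked whether LPS, heroin or both changed gene levels relative to Saline-Saline. Differences were tested with limma-trend on log2(FPKM + 0.1), and a gene was called at an unadjusted p of at most 0.05 with a log2 difference of at least 0.378 in size, which are the thresholds of the study's pattern analyses. In LPS-Saline against Saline-Saline 1 of 50 members tested was called, lower, where 2.37% of all genes were called in either direction and 1.16% lower. In Saline-Heroin it was 1 of 50, lower, where 3.07% of genes were called and 1.67% lower. In LPS-Heroin it was 1 of 50, lower, where 5.43% were called and 2.44% lower. A single member of 50 is close to these background shares. The 3 comparisons share the same Saline-Saline libraries. No member or other gene reached an adjusted p of 0.05 in these fits with limma-trend or limma-voom, although 1002, 995 and 1704 genes had an unadjusted p under 0.05. With no filter on low values 7, 5 and 0 genes did, none of them a member.

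The called member each time was Spa17, which the study had already listed as changed in these data. Its levels were 17.3, 10.1, 9.43 and 10.7 FPKM in Saline-Saline, 7.32, 7.45, 10.6 and 6.98 after LPS, 6.76, 8.13, 9.37 and 9.03 after heroin, and 8.90, 5.97, 7.24 and 10.1 after both. Saline-Heroin lay below Saline-Saline without overlap, and the other 2 groups overlapped it. The log2 differences were -0.53 ± 0.21 (SE; adjusted p = 0.736, limma-trend), -0.48 ± 0.19 (adjusted p = 0.750, limma-trend) and -0.54 ± 0.22 (adjusted p = 0.405, limma-trend). The exact permutation test of the means gave p = 0.0857, 0.0286 and 0.0571, where 0.0286 is the smallest that 4 against 4 allows. Without Saline-Saline replicate 1 the differences were -0.33, -0.28 and -0.35, and Spa17 was not called in any of the 3.

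The median differences of the members also moved with that library. With all 4 controls the median was -0.14 after LPS, -0.06 after heroin and -0.10 after both, those of all genes being 0.01, 0.00 and 0.00. Of the 50 members, 38, 32 and 36 had a difference below 0. The members outside intraflagellar transport had medians of -0.31, -0.14 and -0.22, and the Ift genes -0.03, -0.04 and -0.01. Of these 50, 7, 4 and 5 passed the filter on mean FPKM only through Saline-Saline replicate 1. Over the other 43, 46 and 45 the medians were -0.10, -0.04 and -0.08 with all controls. Without Saline-Saline replicate 1 the medians over the same genes were -0.01, 0.09 and 0.03, with none called, while 2.06%, 2.43% and 4.41% of all genes were called. In that setting 1, 0 and 0 members had an unadjusted p under 0.05, as had 5.21%, 4.92% and 8.68% of all genes. The median of the ependymal list was -0.45, -0.17 and -0.35 with all controls and -0.05, 0.33 and -0.04 without the first. Each median of this list covers the genes that passed the filter in its own setting. Genes that pass only through Saline-Saline replicate 1 were not taken out, so these medians are not over the same genes.

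**Figure D4:**
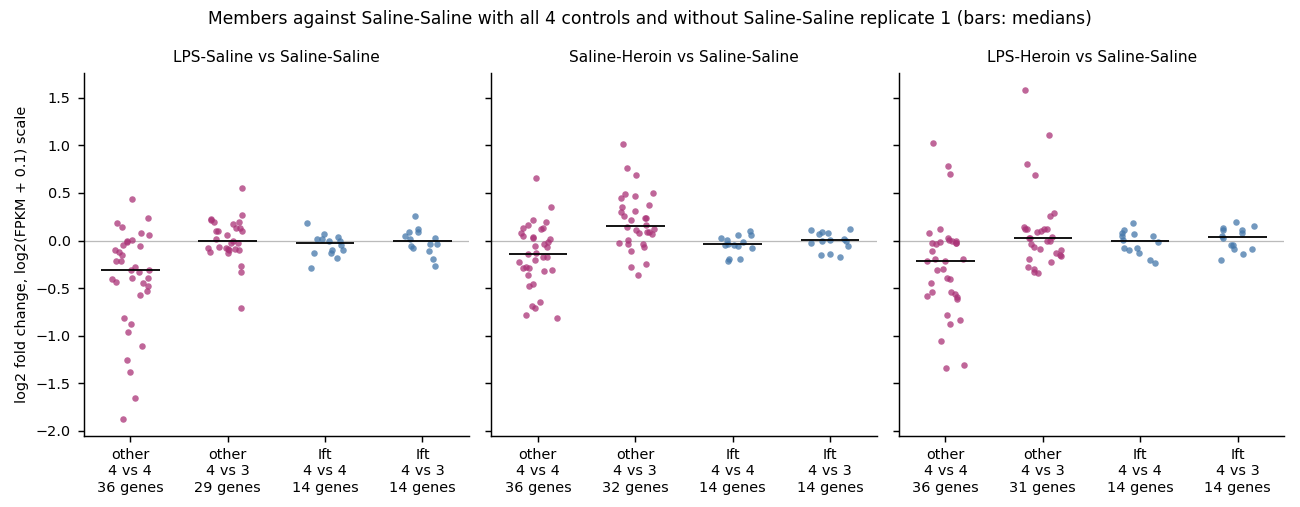
Log2 fold change of each member tested (vertical axis, log2(FPKM + 0.1) scale) in the 3 comparisons against Saline-Saline, for Ift genes and for all other members, with 4 control libraries and with 3 (without Saline-Saline replicate 1); bars are medians. The medians of the other members move from -0.31, -0.14 and -0.22 to -0.01, 0.15 and 0.02, and those of the Ift genes stay between -0.04 and 0.04. The other members number 36 with 4 control libraries and 29, 32 and 31 with 3; over these same genes the medians start from -0.21, -0.06 and -0.19.

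Cfap126 shows the spread behind such a difference. The 4 Saline-Saline values spanned 0.243 to 7.77 FPKM, and the LPS-Saline values were 0.125, 0.826, 0.285 and 0.201, which overlap all but the first control. Fhad1 was similar: LPS-Saline libraries read 0.0492, 0.200, 0.295 and 0.0264 FPKM against 2.02, 0.228, 1.33 and 0.124. Neither was called. Both passed the filter on mean FPKM in this comparison only through their high Saline-Saline values, and neither passed it without Saline-Saline replicate 1. Groups that did not overlap were few: Ift52 in LPS-Saline, Spa17 in Saline-Heroin and Spag7 in LPS-Heroin, each lower, where 1.77%, 1.49% and 3.16% of all genes were lower without overlap. Ift52, a core subunit of the transport particle chosen after its values were seen, was 20.9, 20.2, 18.9 and 19.5 FPKM in Saline-Saline and 15.4, 17.2, 16.9 and 15.5 in LPS-Saline (log2 difference -0.29 ± 0.07 SE, adjusted p = 0.659 in limma-trend). This was too small a fold for the call, and the difference was -0.27 without Saline-Saline replicate 1. Spag7 was 38.3, 37.2, 38.4 and 38.5 in LPS-Heroin against 42.6, 43.1, 38.9 and 40.0, a log2 difference of -0.11.

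Other genes of motile cilia outside the name rule gave counts of the same size. Of 48, 51 and 50 genes tested, 2, 2 and 2 were called lower and 0, 0 and 1 higher, where 1.16%, 1.67% and 2.44% of all genes were called lower. Without Saline-Saline replicate 1, 1, 1 and 0 of 41, 44 and 44 were called lower and 0, 0 and 2 higher. Over all genes 0.859%, 1.26% and 2.03% were then called lower and 1.21%, 1.17% and 2.38% higher. Tppp3, a tubulin-polymerising protein of ciliated cells, was called lower in all 3, the Saline-Saline mean of 41.5 ± 11.5 FPKM (SD, n = 4) giving way to 29.6 ± 4.22 after LPS, 27.6 ± 8.05 after heroin and 29.1 ± 4.86 after both. Its Saline-Saline libraries read 57.9, 40.7, 31.9 and 35.6, the first again being highest. Without it the log2 differences of Tppp3 were -0.29, -0.42 and -0.32, and it was not called in any of the 3. Lrrc23, of the radial spoke, was called lower in Saline-Heroin, at 0.696 ± 0.794 FPKM against 4.14 ± 3.22 (SD, n = 4), and kept that call without Saline-Saline replicate 1.

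The remaining comparisons of the injection experiment asked what heroin added to LPS and what LPS added to heroin. No member was called in LPS-Heroin against LPS-Saline (44 tested, limma-trend), against 2.29% of all genes, nor in LPS-Heroin against Saline-Heroin (46 tested), against 2.2%. No member had an unadjusted p under 0.05 in either, against 4.6% and 4.21% of all genes. With limma-voom on recovered reads the counts were 0 and 1. Median differences were 0.02 and -0.03. The interaction of LPS and heroin over the 16 libraries called none of 47 members, against 2.31% of all genes, with none under an unadjusted p of 0.05, against 4.02%, and 0 by limma-voom. Its median was 0.06 with Saline-Saline replicate 1 and -0.02 without it. Markers of cortical neurons were 0.55 and 0.53 higher in the median of the log2 difference in these 2 comparisons, while the ependymal list was 0.15 higher in the first and 0.35 lower in the second.

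Self-administration of heroin gave the most called members. In Heroin-SA against Saline-SA, 5 of 46 members tested were called and all were lower, against 5.45% of all genes called in either direction and 2.41% called lower. These were Spa17, Dnali1, Cfap126, Rsph3 and Rsph1. The smallest adjusted p of a member was 0.255 (Spa17, limma-trend), so none passed adjustment over the 15024 genes tested, as did no other gene in the fit of these 8 libraries by limma-trend or limma-voom, although 1725 genes had an unadjusted p under 0.05. With all 6 groups in one fit 78 genes passed, none of them a member, and the adjusted p of Spa17 was 0.0512 in limma-trend. The median over the members was -0.10 and that over all genes 0.01, and 33 of 46 members lay below 0. Saline-SA replicates 3 and 4, the libraries most often highest over all genes, had 15.9% and 14.1% of their reads on mitochondrial genes, against 10.0% to 11.8% in the other 6. With both left out (chosen after seeing the data), 8 of 46 members were called lower and 1 higher, against 1.56% of all genes lower. Rsph3 was then no longer called, and the Saline-SA libraries that remained were the 2 with the higher values of Ccdc153. The part of either feature in the counts was not tested.

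Spa17 (gene at chr8:40067076-40078165, rn6) was 9.39, 7.92, 10.6 and 9.71 FPKM in Saline-SA and 6.43, 3.77, 5.06 and 5.50 in Heroin-SA, on 98 to 110 and 37 to 60 reads. Every Heroin-SA library lay below every Saline-SA library. The mean fell from 9.39 ± 1.10 to 5.19 ± 1.10 FPKM (SD, n = 4 each), a log2 difference of -0.86 ± 0.17 (SE; unadjusted p = 0.000567 in limma-trend, exact permutation p = 0.0286). Leaving out any of the 8 libraries kept the call, with differences from -0.97 to -0.72. The 5 lowest values of the series were those of Heroin-SA and of LPS-Heroin replicate 2, which read 5.97.

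The radial spoke heads came next. Rsph3 (chr1:47426258-47477524, rn6), an anchor of protein kinase A at the spoke, was 3.14, 2.91, 3.52 and 4.12 FPKM in Saline-SA and 1.99, 2.27, 2.90 and 2.88 in Heroin-SA. The groups did not overlap, though 2.91 and 2.90 almost met. The log2 difference was -0.44 ± 0.18 (SE; adjusted p = 0.410, limma-trend). Rsph1 (chr20:9998701-10013559, rn6), a head protein, was 3.65, 3.04, 2.42 and 1.84 against 2.07, 2.34, 1.21 and 0.923. These groups overlapped, and the difference was -0.76 ± 0.33 (SE; adjusted p = 0.419, limma-trend). Of 5 radial spoke members tested 2 were called, and the others named, Rsph9 included, did not pass: its Saline-SA values were 6.98, 6.90, 4.40 and 6.07 and its Heroin-SA values 5.02, 5.58, 5.75 and 5.55.

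Dnali1 (chr5:143053367-143062226, rn6) was 3.29, 2.29, 0.779 and 2.22 FPKM in Saline-SA and 0.743, 0.615, 1.09 and 0.918 in Heroin-SA. Saline-SA replicate 3 lay among the heroin libraries. The log2 difference was -1.12 ± 0.41 (SE; adjusted p = 0.371, limma-trend). Cfap126 (chr13:89480058-89495949, rn6) was 1.91, 3.22, 0.738 and 0.855 against 0.467, 0.381, 0.205 and 1.04, on 3 to 64 reads. Saline-SA replicates 1 and 2 were the high ones, and the difference was -1.45 ± 0.55 (SE; adjusted p = 0.393, limma-trend). Dnali1, Cfap126 and Rsph3 kept the call in 4 of the 8 fits that left out a library, and Rsph1 in 3. The count over members was 2 without Saline-SA replicate 1, 2 without Saline-SA replicate 2 and 2 without Heroin-SA replicate 2.

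**Figure D5:**
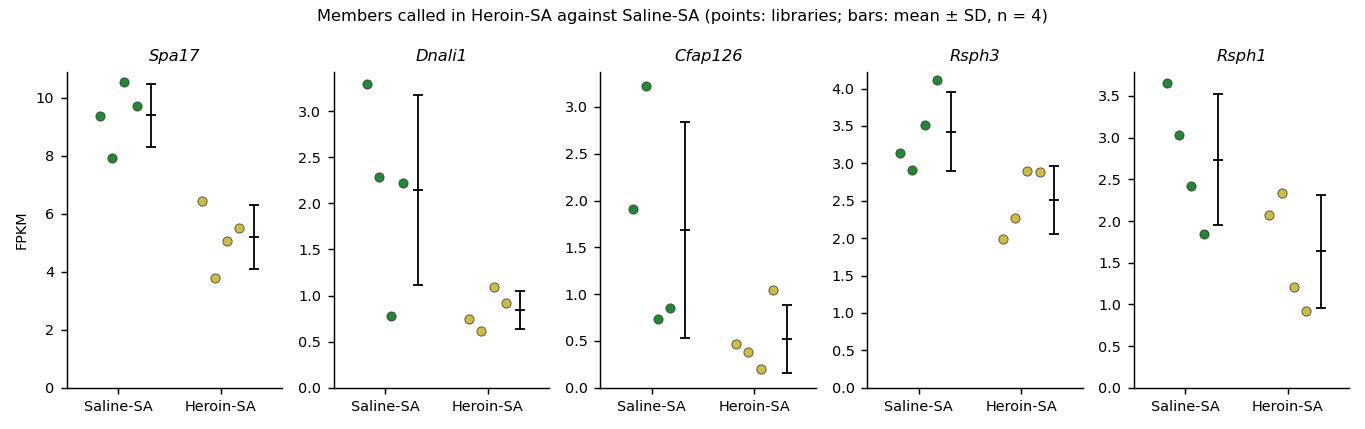
FPKM (vertical axes, from 0) of the 5 members called in Heroin-SA against Saline-SA; points are libraries in order of replicate and bars are the mean ± SD (n = 4). The groups do not overlap for Spa17 (7.92 to 10.6 against 3.77 to 6.43) and Rsph3, and they overlap for Dnali1, Cfap126 and Rsph1.

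Among the Ift genes, none of 14 was called in Heroin-SA, and their median difference was -0.06. Small differences with little spread were found all the same. Ift122, a subunit of the retrograde particle, was 20.6, 19.9, 20.4 and 18.7 FPKM in Saline-SA and 16.02, 17.8, 17.9 and 16.4 in Heroin-SA, without overlap (log2 difference -0.23 ± 0.07 SE, adjusted p = 0.346 in limma-trend). Ift81, which binds tubulin cargo, was 8.20, 10.4, 9.02 and 9.46 against 7.90, 8.03, 6.94 and 7.81, also without overlap (-0.27 ± 0.10 SE, adjusted p = 0.386 in limma-trend). Both were named after their values were seen. Without overlap were 4 members that were lower (Spa17, Rsph3, Ift81 and Ift122) and 1 that was higher, against 3.24% and 3.55% of all genes. The higher one was Spag9, at 47.0, 46.3, 46.0 and 42.3 FPKM in Saline-SA and 49.9, 54.7, 47.4 and 58.9 in Heroin-SA, a log2 difference of 0.21 ± 0.08 (SE; adjusted p = 0.391, limma-trend).

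Beside these members, 3 of 44 other motile cilia genes and 1 of 28 other transport and BBSome genes were called in Heroin-SA, all lower, where 2.41% of all genes were. Tppp3 was 35.0, 38.4, 35.4 and 27.0 FPKM in Saline-SA and 20.7, 25.4, 21.9 and 21.4 in Heroin-SA, without overlap (log2 difference -0.59 ± 0.12 SE, adjusted p = 0.255 in limma-trend). The ependymal list had a median difference of -0.50. Of its 17 genes 2 were called lower, and these were Cfap126 and Rsph1, members already counted above. Its summed level was 94.1 to 126 FPKM in Saline-SA and 89.2 to 106 in Heroin-SA. Ccdc153 was 5.53, 4.28, 2.41 and 1.57 in Saline-SA and 2.10, 3.63, 2.11 and 2.64 in Heroin-SA, which overlap. Ttr was at most 1.04 FPKM in these 8 libraries. The part of ependymal tissue in the difference was not tested. Astrocyte genes had a median of -0.02.

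Levels in the experiments cannot be told apart from housing, light cycle and handling. No member of 47 was without overlap between the 16 injection and the 8 self-administration libraries, whereas 7.18% of all genes were. Dnah2 came near, with 0.508, a mean of 0.986 and 1.74 FPKM as the lowest, mean and highest injection values, and 1.35 to 2.13 with a mean of 1.74 in self-administration. Dnal4 was 25.7 ± 2.14 (SD, n = 16) and 32.8 ± 3.42 (SD, n = 8), and Ift20 was 37.4 ± 2.85 and 45.3 ± 5.50. Dnal1 went the other way, at 22.0 ± 2.58 and 14.5 ± 4.70, as did Cfap97 at 6.84 ± 0.995 and 4.84 ± 0.859.

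Over all 6 groups the members outside intraflagellar transport had mean levels, as log2(FPKM + 0.1), of 1.58 ± 0.26 in Saline-SA, 1.53 ± 0.61 in Saline-Saline, 1.44 ± 0.24 in Saline-Heroin, 1.32 ± 0.26 in LPS-Heroin, 1.30 ± 0.16 in Heroin-SA and 1.20 ± 0.15 in LPS-Saline (SD, n = 4 each). Neighbours in this order lay closer than their spread. Saline-Saline had the widest spread of the 6, from 1.08 to 2.43. The Ift genes lay between 3.82 ± 0.04 in LPS-Saline and 3.88 ± 0.03 in Saline-SA.

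Some members gave little to compare. In all, 21 had a mean under 0.5 FPKM over the 24 libraries, 7 of them dynein heavy chains. Spag6, a protein of the central pair with a near copy (Spag6l) between which reads could be split, ranged from 0.0988 to 6.74 FPKM, and libraries of 1 group differed widely: Saline-Heroin replicate 3 read 6.09. Spag6l had at most 13 reads in any library and Spag6 had 2 to 179. Whether reads were split was not tested. Spag6 was chosen after its values were seen.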

How the data were processed

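RNA of the NAc was sequenced by a provider as paired reads of directional, polyadenylated libraries. According to the submitters' processing notes, reads were trimmed with fastp, aligned with HISAT2 to rn6 and counted with featureCounts; versions and the use of strand are not given in the sources used here. The authors deposited FPKM values for 32545 genes (counts scaled by gene length and library size). Every value times gene length was a whole multiple of a library's step (100% within 0.01), so reads were recovered. Precision follows reads per gene.

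Groups were taken from the labels, which give 4 biological replicates each. Each comparison was fitted with limma 3.58.1 (R 4.3.3, limma-trend) on log2(FPKM + 0.1) of the 8 libraries, for genes averaging 0.5 FPKM or more, after a test on simulated data. Fold changes on that scale understate changes of low genes. Adjusted p-values are Benjamini-Hochberg over all genes tested. Genes were called at an unadjusted p of at most 0.05 and a log2 fold change of at least 0.378. Permutation tests were exact and two-sided. The alternatives were pseudocounts, filters, quantile scaling, a single fit of 6 groups, a replicate block, leaving out each library and, chosen after seeing the data, limma-voom on recovered reads and leaving out 2 Saline-SA libraries. Promoter windows came from RefSeq (GRCr8).

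The members and lists were chosen with earlier results of these data known. Fhad1, Spa17 and Tppp3 are among the genes that the study lists as changed in every treated group. Named were Fhad1, Spa17, the 2 most abundant members of each class, called members, the markers Ccdc153, Tmem212 and Ttr, and the 2 called cilia genes of the other lists with the smallest p; others are marked as chosen later. The values of 1 gene so chosen and 1 promoter window are not reported here. Lists of other motile cilia, transport, ependymal, choroid plexus, septum, striatal, cortical and astrocyte genes are described by counts, and some by summed levels or medians. Genes of the subventricular zone gave 3 of 11 highest in Saline-Saline replicate 1.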

Additional observations from a re-analysis of the deposited data

Results flagged for a closer look

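The highest or lowest library of each group of 4 was set against Dixon's 95% critical value for 19 named genes in 6 groups, 114 sets in all, of which 10 exceeded it. Chance alone gives about 5% of sets. In 5 of the 10 the library was Saline-Saline replicate 1: Spa17 at 17.3 FPKM, Tekt1 at 7.94, Tekt4 at 2.45, Dnali1 at 4.53 and Cfap126 at 7.77, each the highest of its group. The part of ependymal and choroid tissue in these values was not tested, and Ttr was 318 FPKM in the same library.

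The other 5 were spread over libraries and directions. Spa17 was 10.6 FPKM in LPS-Saline replicate 3, with 6.98 to 7.45 in the rest of the group. Dnah9 was lowest in LPS-Saline replicate 4, at 0.675 against 1.24 to 1.34. Cfap20 was 64.1 in Saline-SA replicate 3 against 50.9 to 51.0. Spag7 was lowest in LPS-Heroin replicate 2, at 37.2 against 38.3 to 38.5, a small gap in a tight group. Ift57 was lowest in Saline-SA replicate 4, at 15.1 against 20.2 to 21.0.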

How the results depend on the processing

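The median differences of the members moved by less than the spread between replicates (0.20, which includes Saline-Saline replicate 1) under the alternatives run. Leaving out that library still turned the median from -0.06 to 0.09 in Saline-Heroin and from -0.10 to 0.03 in LPS-Heroin, and moved it from -0.14 to -0.01 in LPS-Saline. Counts moved by at most 1.5 times with a pseudocount of 0.01, a minimum mean of 1 FPKM and quantile scaling. Counts of called members were small and moved more, for causes that were not tested. The values below are called members in the order LPS-Saline, Saline-Heroin and LPS-Heroin against Saline-Saline, whose main counts were 1, 1 and 1. They were 2, 3 and 3 with no filter, where 582 of 21195, 687 of 21229 and 1073 of 21216 genes were called. With all 6 groups in one fit they were 4, 2 and 1, against 339 of 15119, 445 of 15143 and 723 of 15134 genes. With limma-voom on recovered reads they were 1, 1 and 2, against 364, 501 and 878 of the same genes. Leaving out a library gave 0 to 3, 0 to 1 and 0 to 2, where 310 to 625, 366 to 727 and 664 to 988 genes were called. For LPS-Heroin against LPS-Saline (0) the count was 1 with a pseudocount of 1, 1 with no filter and 0 to 1 leaving out a library. Over all genes these settings called 301 of 15069, 548 of 21111 and 295 to 428. For LPS-Heroin against Saline-Heroin (0) it was 1 with no filter, 1 with limma-voom and 0 to 1 leaving out a library. Over all genes these settings called 524 of 21177, 330 of 15121 and 301 to 446. For the interaction (0) it was 1 with no filter, 1 with all groups in one fit and 0 to 1 leaving out a library. Over all genes these settings called 565 of 22169, 309 of 15113 and 290 to 446. For Heroin-SA against Saline-SA (5) leaving out a library gave 2 to 6, where 645 to 1211 genes were called. Leaving out Saline-SA replicates 3 and 4 gave 9, against 544 of 14982 genes. The other alternatives gave 4 or 5, against 685 to 1047 genes.

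With the replicate block, the counts were 2, 0 and 1 against Saline-Saline, 0 and 0 in the other injection comparisons, 5 in Heroin-SA and 1 in the interaction. Over all genes the block called 481 of 15119, 440 of 15143 and 901 of 15134 against Saline-Saline. It called 405 of 15069 and 308 of 15121 in the other injection comparisons, 758 of 15024 in Heroin-SA and 346 of 15113 in the interaction. Correlations of deviations between libraries with the same number ran from -0.15 to 0.15. Such weak correlations cannot settle whether the numbers paired the rats. The 8 called differences (Spa17 in 4 comparisons, Dnali1, Rsph1, Rsph3 and Cfap126) kept their sign in all alternatives: over these, the call was kept 99 times and lost 34 times. Genes past adjustment numbered 78 in Heroin-SA with all 6 groups in one fit, 1 with a pseudocount of 1 and 2 without Saline-SA replicates 3 and 4. With no filter they numbered 7, 5 and 0 against Saline-Saline, 1 in LPS-Heroin against Saline-Heroin and 2 in the interaction. Fits that left out a library gave at most 3. No member was among them in any setting.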
